A study of Homo sapiens with 11 samples.

Results

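The Notch genes followed here were the receptors NOTCH1, NOTCH2, NOTCH3 and NOTCH4, the ligands JAG1, JAG2, DLL1 and DLL4, and the targets HES1 and HEYL. They were chosen by name, and 8 of the 10 had a row in the count table of 19990 genes. NOTCH4 and DLL1 are not analysed here. RNA was measured in cardiomyocytes differentiated at passage 63 from WTC11, a widely used line of human induced pluripotent cells. Every well shared the same history: a differentiation started with CHIR99021, which activates Wnt signalling by inhibiting GSK3, followed by IWP2, which blocks Wnt secretion, and then culture in RPMI1640 with B27 and insulin. The groups were wells collected on Day 30 (n = 4), Day 60 (n = 3) and Day 113 (n = 4), with no other treatment and no genetic change named. All wells came from 1 differentiation of 1 line, so the p-values measure the spread between wells only. Collection and day of culture coincided and no batch was named, so the effects of the 2 cannot be told apart.

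Notch signalling passes between touching cells. A ligand of the Jagged or Delta-like family on one cell pulls on a receptor on its neighbour, ADAM proteases and then gamma-secretase cut the receptor, and the freed intracellular domain enters the nucleus. There it binds the DNA-binding protein RBPJ with a Mastermind co-activator and switches on HES and HEY genes, which encode transcriptional repressors. In the heart and its vessels, DLL4 and NOTCH1 are known for their roles in endothelial cells, NOTCH3 and HEYL in the mural cells around vessels, and JAG1 in outflow tract and valve development.

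Depth lay between 24.1 and 34.5 M counts per library, where M stands for 1000000. Levels are given as CPM, counts per 1000000 counts after TMM scaling of the library sizes. The 11 cardiomyocyte markers summed to 33754 to 45505 CPM on Day 30, 42823 to 48490.1 CPM on Day 60 and 36415 to 40396 CPM on Day 113, and 0 of the 11 was at 0 in any library. Markers of other cell types were also present and are given beside the results. These are bulk libraries, so more cells of a type and more RNA per cell cannot be told apart.

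The stretches before the RefSeq starts of the target genes are shown first because RBPJ acts through DNA. The letters TGGGAA are the core that it is known to bind. The window was the 250 bases before each RefSeq start (GRCh38.p14), read on both strands, and capitals mark TGGGAA or its complement TTCCCA. All 8 genes had a window in the table, and 2 of the 8 held the core, HES1 with 2 matches and HEYL with 2. In HES1 the matches began 84 and 70 bases before the start, and in HEYL 178 and 99 bases before it. Among all 35116 promoters of the same table, 20.8% held the core and 2.90% held it at least 2 times. Of the 6 other target family genes with a window, 2 held the core, HEY2 and HES4 with 1 match each. The HES1 stretch is 247 bases, ending before the first annotated exon base, and the others are 30 bases around each match. All are 5′ to 3′ on the strand of the gene. By the GENCODE gene models, which give the gene coordinates below, none of the other stretches lies wholly upstream of its gene. Both HEYL stretches lie inside the HEYL model (39624153-39639945), and the HEY2 stretch inside the HEY2 model (125747664-125761269). The HES4 stretch crosses the start of the HES4 model, at base 1000172.
HES1, chr3:194135898-194136144, + strand: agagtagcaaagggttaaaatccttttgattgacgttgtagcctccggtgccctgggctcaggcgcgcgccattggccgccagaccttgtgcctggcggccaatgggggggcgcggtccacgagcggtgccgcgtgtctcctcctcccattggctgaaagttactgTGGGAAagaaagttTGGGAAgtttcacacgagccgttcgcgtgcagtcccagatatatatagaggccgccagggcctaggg
HEYL, chr1:39639804-39639833, - strand: ccgcctagggccTTCCCAcggctcggcggc
HEYL, chr1:39639725-39639754, - strand: aggaaagggcccTGGGAAagggcggtggcg
HEY2, chr6:125749407-125749436, + strand: tccgcggccgcgTTCCCAcgcctcggctgg
HES4, chr1:1000156-1000185, - strand: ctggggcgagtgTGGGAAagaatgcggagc
The HES1 matches lay on the strand of the gene, a few bases apart from each other. A second motif searched was the N box, CACNAG, which HES proteins are known to bind. It was found in the windows of HES1 (3 matches) and NOTCH3 (1 match), 2 of the 8 genes, and in 32.0% of all promoters. A match describes the letters only, and binding was not measured in these samples.

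The largest changes among the Notch genes were in DLL4 and HEYL, which were low on Day 30 and Day 60 and higher in every Day 113 well. NOTCH1 and HES1 also rose between Day 60 and Day 113. NOTCH3 fell between Day 30 and Day 60, and NOTCH2 and JAG2 were lower on Day 113 than on Day 30. JAG1 did not pass the test in any comparison.

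**Figure D1:**
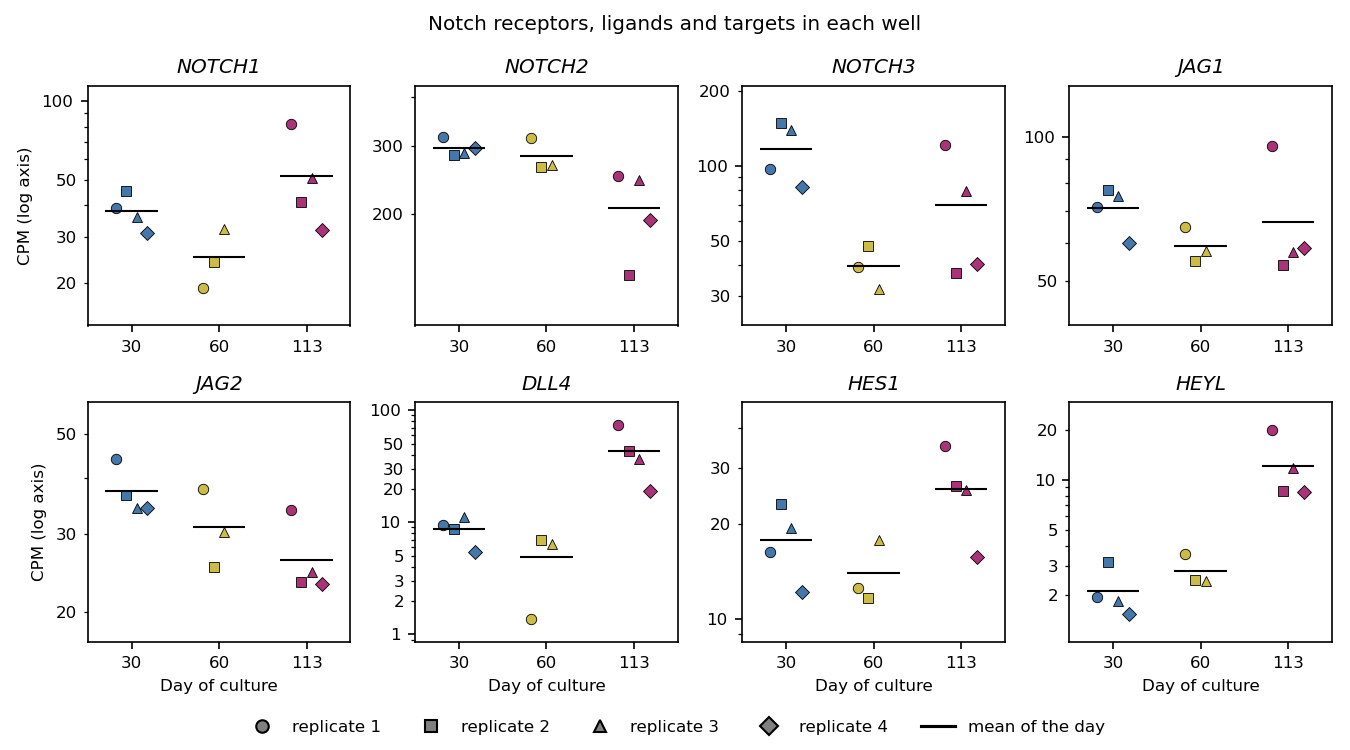
Level of each of the 8 Notch genes in CPM (log axis) against day of culture, with 1 marker per well, its shape giving the replicate number, and a bar at the mean of the day. DLL4 and HEYL sit higher in all 4 Day 113 wells than in any earlier well, and Day 113 replicate 1 is the highest Day 113 well in all 8 panels.

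From Day 30 to Day 60, 1 of the 8 genes passed the edgeR quasi-likelihood test at an adjusted p under 0.05, NOTCH3, which fell. Over all genes tested, 10.3% passed in this comparison, 4.39% with a rise and 5.91% with a fall. For 1 of the 8 genes there was no overlap between the wells of these days, beside 24.8% of all genes. The median log2 fold change of the 8 was -0.30, beside -0.01 over all genes. From Day 60 to Day 113, 5 of the 8 passed, 4 higher (NOTCH1, DLL4, HES1, HEYL) and 1 lower (NOTCH2). Over all genes, 24.0% passed, 12.9% with a rise and 11.1% with a fall. The wells did not overlap for 3 of the 8, beside 30.6% of all genes, and the median log2 fold change was 0.85, beside 0.00 over all genes. Without Day 60 replicate 1, 2 of the 8 passed in this comparison, and without Day 60 replicate 2, 3 passed.

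Between the ends of the culture, Day 113 and Day 30, 4 of the 8 passed, with DLL4 and HEYL higher and NOTCH2 and JAG2 lower. The background was near that count, since 34.5% of all genes passed, 17.3% with a rise and 17.2% with a fall. The wells did not overlap for 4 of the 8, beside 35.1% of all genes, and the median log2 fold change was 0.18, beside -0.02. The change over the later interval differed from that over the earlier interval for 3 of the 8 (NOTCH1, NOTCH3 and DLL4), all more positive in the later one. Over all genes, 9.34% passed this test of the difference, 4.97% in the positive and 4.38% in the negative direction. The fit with robust dispersions called 0 of the 8 for the difference and 0 for Day 60 against Day 30, with 5 and 1 at an unadjusted p under 0.05. DESeq2 and limma-voom called 3 for the difference and 1 for Day 60 against Day 30.

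**Figure D2:**
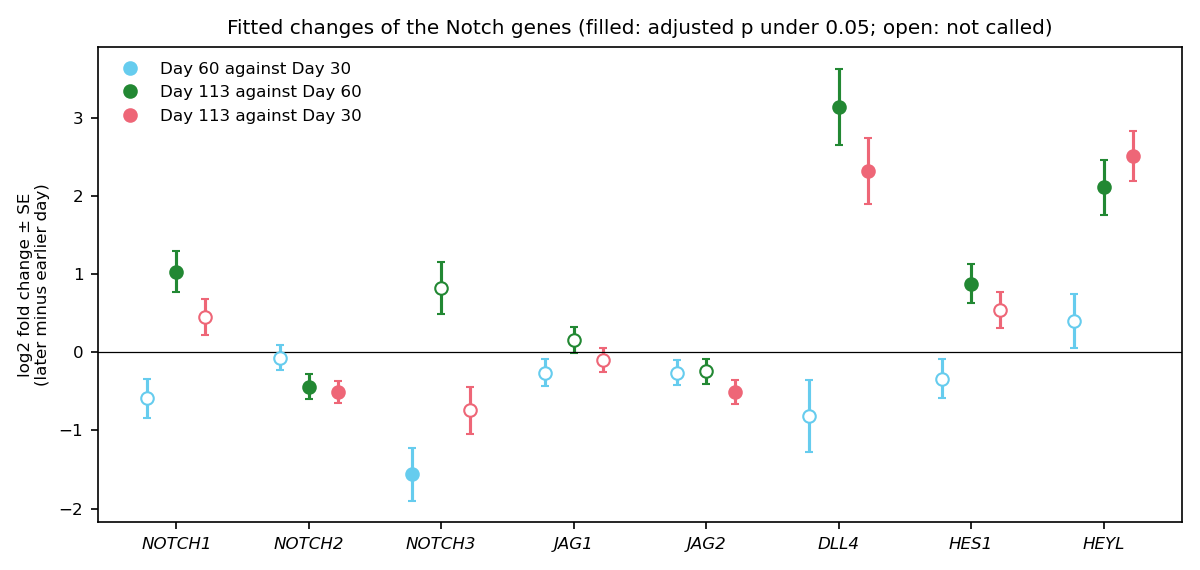
Fitted log2 fold change, with its SE as bars, of each of the 8 Notch genes in the 3 comparisons of days. Filled points had an adjusted p under 0.05. The filled points furthest from 0 belong to DLL4 and HEYL in the comparisons with Day 113.

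DLL4 encodes a Delta-like ligand known from arteries and from the tip cells of sprouting vessels. Its gene lies at chr15:40929333-40939073 on the + strand (GRCh38, GENCODE release 29). In the 4 Day 30 wells it was at 9.55, 8.71, 11.2 and 5.39 CPM, and in the 3 Day 60 wells at 1.37, 7.00 and 6.47 CPM. In the 4 Day 113 wells it was at 74.6, 43.7, 36.6 and 18.9 CPM. The Day 113 wells were thus all above the highest earlier well, with a wide spread among themselves, while Day 30 and Day 60 overlapped. The day means were 8.71 ± 2.44 CPM (SD, n = 4), 4.95 ± 3.11 CPM (SD, n = 3) and 43.5 ± 23.3 CPM (SD, n = 4). The log2 fold change from Day 60 to Day 113 was 3.14 ± 0.49 (SE), an 8.82-fold rise, with an adjusted p of 0.000337. Against Day 30, DLL4 was 4.99-fold higher on Day 113, a log2 fold change of 2.32 ± 0.42 (adjusted p = 0.000487). No change was called from Day 30 to Day 60 (-0.82 ± 0.46, adjusted p = 0.321). The later interval exceeded the earlier one by 3.96 ± 0.88 on the log2 scale (adjusted p = 0.0115). Without Day 60 replicate 1 that difference was 3.03, and without replicate 2 it was 4.62.

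JAG1 and JAG2, the Jagged ligands, moved far less. JAG1 (chr20:10637684-10673999, - strand) was at 71.3, 77.6, 75.4 and 60.1 CPM on Day 30, at 64.8, 55.1 and 57.8 CPM on Day 60 and at 95.5, 54.0, 57.4 and 58.6 CPM on Day 113. All 3 days overlapped, and Day 113 replicate 1 stood above every other well. The log2 fold change of JAG1 was -0.26 ± 0.17 from Day 30 to Day 60 (adjusted p = 0.396), 0.16 ± 0.17 from Day 60 to Day 113 (adjusted p = 0.529) and -0.10 ± 0.15 from Day 30 to Day 113 (adjusted p = 0.669). Without Day 113 replicate 1, JAG1 was lower on Day 113 than on Day 30, with a log2 fold change of -0.33 and an adjusted p of 0.0267.

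JAG2 (chr14:105140981-105168824, - strand) was at 44.0, 36.7, 34.2 and 34.3 CPM on Day 30, at 37.8, 25.2 and 30.3 CPM on Day 60 and at 33.8, 23.4, 24.6 and 23.1 CPM on Day 113. The Day 113 wells all lay below the Day 30 wells, with Day 113 replicate 1 close under the lowest of them. JAG2 was 1.42-fold lower on Day 113 than on Day 30, a log2 fold change of -0.51 ± 0.15 (adjusted p = 0.0166). Without Day 30 replicate 1 the value was -0.42 and did not pass (adjusted p = 0.0672). Neither single interval passed, with -0.26 ± 0.16 from Day 30 to Day 60 (adjusted p = 0.383) and -0.24 ± 0.16 from Day 60 to Day 113 (adjusted p = 0.313). Exons of both Jagged genes overlap an annotated gene that is not in the table, by 79 bases (antisense) for JAG1 and by 469 bases (same strand) for JAG2. Whether counting used strand is not given in the sources used here, and this bears on JAG1 only. How reads in the same-strand overlap of JAG2 were assigned is not given either. The counts of both are uncertain to that extent.

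Among the receptors, NOTCH1 (chr9:136494433-136545786, - strand) is the receptor best known from endothelium and endocardium. It was at 38.8, 45.1, 35.9 and 31.2 CPM on Day 30, at 19.2, 24.1 and 32.2 CPM on Day 60 and at 82.0, 41.2, 50.7 and 31.9 CPM on Day 113. The lowest Day 113 well lay just under the highest Day 60 well, so these days overlapped. The means were 37.7 ± 5.82 (SD, n = 4), 25.2 ± 6.55 (SD, n = 3) and 51.4 ± 21.8 CPM (SD, n = 4). NOTCH1 rose 2.05-fold from Day 60 to Day 113, a log2 fold change of 1.03 ± 0.26 (adjusted p = 0.00835). Without Day 60 replicate 1 it was 0.86 and did not pass (adjusted p = 0.0516). The other pairs of days did not pass, with -0.59 ± 0.25 from Day 30 to Day 60 (adjusted p = 0.174) and 0.45 ± 0.23 from Day 30 to Day 113 (adjusted p = 0.15). In a fit of Day 30 and Day 60 alone, the first of these passed at -0.57 (adjusted p = 0.0303). Without Day 113 replicate 4, the Day 113 level passed against Day 30 at 0.62 (adjusted p = 0.0383), and without Day 113 replicate 1 it was 0.13 (adjusted p = 0.627). Between the 2 intervals NOTCH1 differed by 1.62 ± 0.46 (adjusted p = 0.0399). That call was lost without any of Day 30 replicates 1 to 3, Day 60 replicates 1 to 3 or Day 113 replicate 3, with values of 1.26 to 2.02 and adjusted p-values of 0.0519 to 0.201.

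NOTCH3 (chr19:15159038-15200981, - strand), the receptor known from vascular smooth muscle and pericytes, had another course. Its wells were at 97.5, 149, 139.8 and 82.7 CPM on Day 30, at 39.3, 47.6 and 32.2 CPM on Day 60 and at 121, 37.4, 79.6 and 40.6 CPM on Day 113. All Day 60 wells lay below all Day 30 wells, and the Day 113 wells spread from the Day 60 range into the Day 30 range. The means were 117 ± 32.0 (SD, n = 4), 39.7 ± 7.71 (SD, n = 3) and 69.8 ± 39.4 CPM (SD, n = 4). NOTCH3 fell 2.95-fold from Day 30 to Day 60, a log2 fold change of -1.56 ± 0.34 (adjusted p = 0.00737). Without Day 60 replicate 3 the value was -1.41 (adjusted p = 0.0528), and with robust dispersions the adjusted p was 0.0629. The later interval, at 0.82 ± 0.33 (adjusted p = 0.0858), and Day 113 against Day 30, at -0.74 ± 0.30 (adjusted p = 0.0655), did not pass. Of these, the first passed without Day 113 replicate 2 (1.02, adjusted p = 0.0239) or replicate 4 (1.00, adjusted p = 0.0347), and was 0.41 without replicate 1 (adjusted p = 0.285). The second passed without Day 30 replicate 4 (-0.88, adjusted p = 0.0446) or Day 113 replicate 1 (-1.15, adjusted p = 0.00179), and with limma-voom (-0.85, adjusted p = 0.0296). Between the 2 intervals NOTCH3 differed by 2.38 ± 0.61 (adjusted p = 0.0238), and this did not pass without Day 60 replicate 1 (2.33, adjusted p = 0.103) or replicate 3 (2.08, adjusted p = 0.134).

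NOTCH2 (chr1:119911553-120069626, - strand), a receptor with broad expression, had the most counts of the 3. It was at 316, 283, 287 and 296 CPM on Day 30, at 314, 264 and 267 CPM on Day 60 and at 250.4, 139, 244 and 193 CPM on Day 113. Every Day 113 well was below every earlier well. NOTCH2 was 1.43-fold lower on Day 113 than on Day 30, a log2 fold change of -0.51 ± 0.14 (adjusted p = 0.0115), and 1.36-fold lower than on Day 60, at -0.44 ± 0.16 (adjusted p = 0.0479). The second call was lost in a fit of the 2 days alone (-0.46, adjusted p = 0.0978) and without any of Day 60 replicates 1 to 3 or Day 113 replicates 2 and 4, with values of -0.30 to -0.49 and adjusted p-values of 0.0573 to 0.173. NOTCH2 did not pass from Day 30 to Day 60 (-0.07 ± 0.16, adjusted p = 0.864). NOTCH2 has near-identical partial copies, the NOTCH2NL genes, and the 4 of them in the table summed to 18.5 to 33.0% of the NOTCH2 level across libraries. How reads shared by these copies were assigned is not given in the sources used here, so the NOTCH2 values are uncertain to that extent.

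The rows named NOTCH4_2 and NOTCH4_3 carry a suffix that is not explained in the sources used here, and they are given as uncertain copies rather than as NOTCH4. The NOTCH4_2 row held 8, 8, 31 and 12 counts on Day 30, 3, 5 and 16 on Day 60 and 110, 29, 47 and 20 on Day 113. All Day 113 wells were above all Day 60 wells in these counts. Its log2 fold change from Day 60 to Day 113 was 2.59 ± 0.80 (adjusted p = 0.0278), and this did not pass without Day 60 replicate 1 (2.19, adjusted p = 0.101), Day 60 replicate 2 (2.40, adjusted p = 0.0865) or Day 113 replicate 1 (2.02, adjusted p = 0.109). The NOTCH4_3 row held 0 counts in 4 of the 7 earlier wells and 15 to 62 counts on Day 113, and its difference from Day 60 did not pass (adjusted p = 0.0866).

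To compare levels between genes, CPM was divided by the length of each gene's merged exons in kilobases (GENCODE release 29). On Day 30 the order of CPM per kb was NOTCH2 (17.6 ± 0.885, SD, n = 4), NOTCH3 (12.5 ± 3.41), HES1 (8.61 ± 2.25), JAG1 (7.65 ± 0.839), JAG2 (5.83 ± 0.724), NOTCH1 (3.64 ± 0.561), DLL4 (1.83 ± 0.512) and HEYL (0.583 ± 0.200). The wells of neighbours in this order overlapped from NOTCH3 down to JAG2 and did not overlap elsewhere. On Day 60, NOTCH2 (16.8 ± 1.66, SD, n = 3) was followed by HES1 (6.80 ± 1.59), JAG1 (6.37 ± 0.539), JAG2 (4.86 ± 0.992), NOTCH3 (4.23 ± 0.821), NOTCH1 (2.42 ± 0.631), DLL4 (1.04 ± 0.653) and HEYL (0.769 ± 0.173). There the neighbours HES1 and JAG1, JAG2 and NOTCH3, and DLL4 and HEYL overlapped. On Day 113 the order was HES1 (12.5 ± 3.86, SD, n = 4), NOTCH2 (12.3 ± 3.08), DLL4 (9.13 ± 4.89), NOTCH3 (7.43 ± 4.20), JAG1 (7.14 ± 2.10), NOTCH1 (4.96 ± 2.10), JAG2 (4.10 ± 0.790) and HEYL (3.33 ± 1.48), and every pair of neighbours overlapped.

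These length-scaled levels were also taken as shares of the 3 receptors and of the 3 ligands in each well. DLL4 made up 11.8 ± 2.51% (SD, n = 4) of the ligand sum on Day 30, 8.73 ± 5.75% (SD, n = 3) on Day 60 and 42.8 ± 10.0% (SD, n = 4) on Day 113. The lowest Day 113 well, at 28.5%, was above the highest earlier well, at 14.9%. JAG1 held 46.3 to 52.5% on Day 30, 51.9 ± 1.27% on Day 60 and 36.1 ± 6.41% on Day 113, and JAG2 held 38.2 ± 3.88%, 39.3 ± 5.13% and 21.1 ± 3.86%. Of the receptor sum, NOTCH2 made up 52.7 ± 6.90% on Day 30, 71.5 ± 3.82% on Day 60 and 51.4 ± 7.83% on Day 113. NOTCH3 made up 36.5 ± 6.77%, 18.1 ± 3.48% and 28.5 ± 6.05% on the same days. NOTCH1 made up 10.8 ± 0.933%, 10.5 ± 3.18% and 20.1 ± 3.84%, and its lowest Day 113 well, at 16.3%, was above its highest earlier well, at 13.8%. These shares are given as a description, with no test, and depend on the annotated exon lengths.

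**Figure D3:**
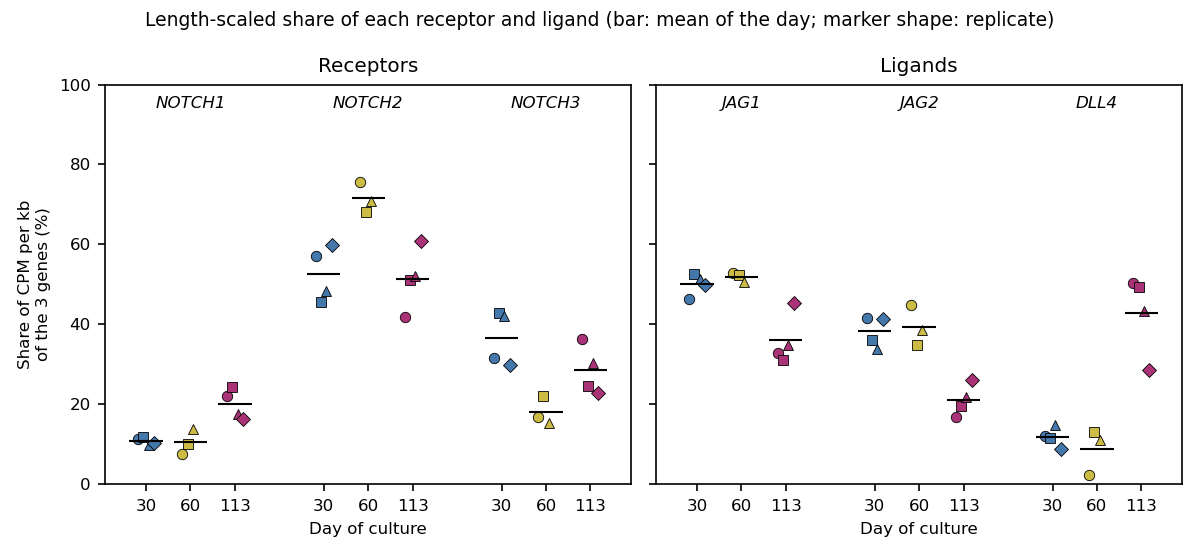
Share in percent of the summed CPM per kb of the 3 receptors (left) and the 3 ligands (right), by day, with 1 marker per well and a bar at the mean of the day. DLL4 moves from a mean of 8.73% of the ligand sum on Day 60 to 42.8% on Day 113, and NOTCH2 is highest on Day 60 at 71.5% of the receptor sum.

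HES1 (chr3:194136145-194138732, + strand), a repressor of the HES family and a direct Notch target in many tissues, was at 16.3, 23.1, 19.4 and 12.2 CPM on Day 30. It was at 12.6, 11.7 and 17.8 CPM on Day 60 and at 35.2, 26.3, 25.6 and 15.7 CPM on Day 113. The lowest Day 113 well lay inside the Day 60 range. HES1 rose 1.83-fold from Day 60 to Day 113, a log2 fold change of 0.88 ± 0.25 (adjusted p = 0.0196). HES1 no longer passed when the fit left out Day 60 replicate 1 (0.79, adjusted p = 0.0803), Day 60 replicate 2 (0.76, adjusted p = 0.0818) or Day 113 replicate 1 (0.69, adjusted p = 0.0501). Against Day 30 the value was 0.54 ± 0.23 (adjusted p = 0.0849), and it passed without Day 30 replicate 2 (0.70, adjusted p = 0.0428) or Day 113 replicate 4 (0.71, adjusted p = 0.0177), while without Day 113 replicate 1 it was 0.35 (adjusted p = 0.258). The earlier interval gave -0.34 ± 0.25 (adjusted p = 0.482). The difference between the intervals, 1.22 ± 0.46, did not pass (adjusted p = 0.109), but did so without Day 113 replicate 4 (1.39, adjusted p = 0.0389).

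HEYL (chr1:39624153-39639945, - strand), a HEY family repressor known from vascular smooth muscle, was the least abundant of the 8. It was at 1.95, 3.20, 1.84 and 1.55 CPM on Day 30, at 3.54, 2.47 and 2.43 CPM on Day 60 and at 20.0, 8.51, 11.8 and 8.46 CPM on Day 113. The 4 Day 113 wells all lay above the 7 earlier wells. HEYL rose 4.33-fold from Day 60 to Day 113, a log2 fold change of 2.11 ± 0.35 (adjusted p = 0.000463), and 5.70-fold from Day 30, at 2.51 ± 0.32 (adjusted p = 1.96e-05). The earlier interval gave 0.40 ± 0.34 (adjusted p = 0.556). The difference between the intervals, 1.72 ± 0.61, did not pass (adjusted p = 0.0929).

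Within Day 113, replicate 1 was the highest well for 8 of the 8 Notch genes, beside 26.8% of all genes that were highest there. On Day 30, replicate 2 was highest for 5 of the 8, beside 25.7% of all genes. Replicate 1 of Day 113 also had the highest sums of endothelial and of fibroblast and epicardial markers of any library. Its mural and smooth muscle sum, 1799 CPM, was the highest as well. Without it, 4 of the 8 genes passed from Day 60 to Day 113 and 6 of the 8 passed against Day 30. In those fits DLL4 had log2 fold changes of 2.75 (adjusted p = 0.000381) and 1.93 (adjusted p = 0.00102), and HEYL of 1.77 (adjusted p = 0.000933) and 2.16 (adjusted p = 3.49e-05).

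Markers of vessel and stromal cells moved over the same days. The 14 endothelial markers, among them PECAM1, CDH5 and VWF, summed to 183, 193, 182 and 128 CPM on Day 30, to 83.5, 120.2 and 72.8 CPM on Day 60 and to 1143, 533, 597 and 321 CPM on Day 113. From Day 60 to Day 113, 14 of the 14 rose, with a median log2 fold change of 3.60, and from Day 30 to Day 113, 13 of the 14 rose. From Day 30 to Day 60, 0 of the 14 rose and 3 fell, with a median of -0.70. PECAM1, which encodes an endothelial adhesion molecule, was at 8.71 to 13.4 CPM on Day 60 and at 84.5 to 347 CPM on Day 113. Of the 14 markers, only CLEC14A was at 0 in any library, in Day 60 replicate 3. The 12 fibroblast and epicardial markers summed to 3468 to 7821 CPM on Day 30, 2274 to 3722 CPM on Day 60 and 5615 to 13258 CPM on Day 113, and none was at 0. In that list 2 rose and 3 fell from Day 30 to Day 60, and 6 rose and 1 fell from Day 60 to Day 113. Against Day 30, 6 were higher and 3 lower on Day 113. The 9 mural and smooth muscle markers measured summed to 786 to 1068, 889 to 1032 and 1156 to 1799 CPM, with none at 0 and 5 of the 9 higher on Day 113 than on Day 60. The 8 epithelial and endoderm markers summed to 2301 to 3665 CPM on Day 30, 1286 to 1474 CPM on Day 60 and 1178 to 1968 CPM on Day 113. In that list 7 of the 8 fell from Day 30 to Day 60, with a median log2 fold change of -2.95. FOXA2 was at 0 in some libraries. Most of the Day 30 sum came from KRT8, KRT18 and KRT19, with means of 1092, 536 and 634 CPM. NOTCH3 fell in the same interval, in which the mean endothelial sum also went from 172 to 92.2 CPM. The mean fibroblast and epicardial sum went from 5706 to 3134 CPM, and the mural and smooth muscle sum from 938 to 956 CPM. AFP, a marker of endoderm and fetal liver, went from 499.8 ± 187 CPM on Day 30 (SD, n = 4) to 5.95 ± 1.92 CPM on Day 60 (SD, n = 3). The 6 markers of proliferating cells were highest on Day 60, with sums of 346 to 435, 541 to 790.1 and 208 to 405 CPM on the 3 days, and 6 of the 6 fell from Day 60 to Day 113. The 5 neural markers measured summed to 20.8 to 43.7, 22.9 to 42.0 and 25.2 to 32.2 CPM, with ELAVL3 and SOX2 at 0 in some libraries. The part of all these markers in the changes of DLL4, HEYL, NOTCH1, HES1 and NOTCH3 was not tested.

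Relative to the summed endothelial markers, the Notch genes differed among themselves. This ratio, and those to other marker sums, were chosen after the values were seen and are given with no test. DLL4 was 5.02 ± 0.855% of the endothelial sum on Day 30 (SD, n = 4), 5.45 ± 3.63% on Day 60 (SD, n = 3) and 6.68 ± 1.05% on Day 113 (SD, n = 4), and the ranges of wells overlapped between all days. HEYL was at 1.01 to 1.66% on Day 30, 2.05 to 4.24% on Day 60 and 1.60 to 2.64% on Day 113, so that Day 113 overlapped both other days. Relative to the mural and smooth muscle sum the order differed, since HEYL was at 0.145 to 0.327% on Day 30, 0.257 to 0.343% on Day 60 and 0.562 to 1.11% on Day 113, with every Day 113 well above all earlier wells. Relative to the fibroblast and epicardial sum, HEYL was at 0.0266 to 0.0446%, 0.0725 to 0.107% and 0.103 to 0.151% on the 3 days. There Day 113 overlapped Day 60. DLL4 was at 0.505 to 1.42%, 0.133 to 0.788% and 1.63 to 4.15% of the mural and smooth muscle sum. Of the fibroblast and epicardial sum, DLL4 was at 0.111 to 0.207%, 0.0369 to 0.284% and 0.320 to 0.624%. In both, every Day 113 well was above all earlier wells. Of the endothelial sum, NOTCH1 was at 19.7 to 24.4%, 20.0 to 44.2% and 7.17 to 9.93%, with Day 113 below all earlier wells. HES1 was likewise lower on Day 113 relative to the endothelial sum. It was at 3.08 to 4.93%, beside 8.90 to 12.0% on Day 30 and 9.72 to 24.4% on Day 60. Of the mural and smooth muscle sum, NOTCH1 was at 2.92 to 4.60%, 1.86 to 3.40% and 2.72 to 4.56%. HES1 was at 1.14 to 2.47%, 1.22 to 1.88% and 1.36 to 1.96% of that sum, and for both genes all days overlapped. Relative to the fibroblast and epicardial sum, NOTCH3 was at 1.90 to 2.38% on Day 30, 1.06 to 1.42% on Day 60 and 0.534 to 0.916% on Day 113, and no days overlapped. Relative to the mural and smooth muscle sum it was at 7.74 to 17.8% on Day 30, 3.40 to 5.36% on Day 60 and 2.47 to 6.75% on Day 113, so that the Day 113 wells spanned those of Day 60. The fibroblast and epicardial sum came mostly from the collagen genes COL1A1, COL1A2 and COL3A1. Their means were 1681, 1414 and 2221 CPM on Day 30, beside a mean sum of 5706 CPM. On Day 113 they were 3076, 2112 and 3623 CPM, beside 9335 CPM. Ratios to that sum are thus mainly ratios to collagen RNA. The mural and smooth muscle sum came mostly from CNN1, RGS5 and TAGLN on Day 30. Their means were 305, 206 and 192 CPM, beside a mean sum of 938 CPM. On Day 113 they were 328, 180.1 and 336 CPM, beside 1495 CPM. PDGFRB, of the same list, had means of 18.8, 38.7 and 89.3 CPM on the 3 days and weighs little in the sum. Against Day 30, 5 of the 9 markers were higher on Day 113 and 0 lower.

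**Figure D4:**
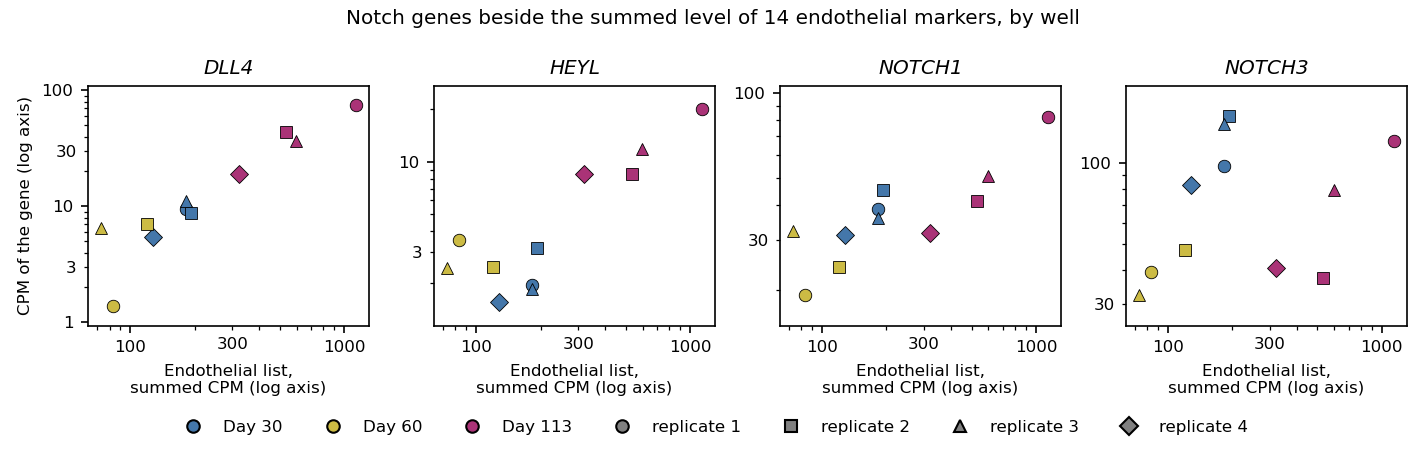
CPM of DLL4, HEYL, NOTCH1 and NOTCH3 (log axis) against the summed CPM of 14 endothelial markers (log axis), with 1 marker per well, its colour giving the day and its shape the replicate. The Day 113 wells lie at 321 to 1143 CPM of endothelial markers and the earlier wells at 72.8 to 193 CPM. DLL4 is at 18.9 to 74.6 CPM in the former and 1.37 to 11.2 CPM in the latter, while NOTCH3 on Day 113 overlaps both earlier days.

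Beyond these genes, 42 others of the pathway were listed by role, and 40 were measured (HES5 and DTX1 are not analysed here). From Day 30 to Day 60, 1 of the 40 rose and 7 fell (median log2 fold change -0.14), beside 4.39% and 5.91% of all genes. From Day 60 to Day 113, 6 rose and 4 fell (median 0.12), beside 12.9% and 11.1%. For Day 113 against Day 30, 6 rose and 12 fell (median -0.16), beside 17.3% and 17.2%. Across the 7 role groups the target family had the most members past the test from Day 30 to Day 113, with 3 of the 7 measured higher and 4 lower. That group was listed by gene family, and whether Notch controls each of its genes in these cells was not measured.

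Within the target family the members moved in opposite directions. HEY2, a HEY repressor known from ventricular myocardium, was at 206, 159, 172 and 203 CPM on Day 30, at 175, 159.5 and 152 CPM on Day 60 and at 79.7, 78.0, 61.4 and 68.9 CPM on Day 113. The Day 113 wells all lay below the earlier ones, and HEY2 fell with a log2 fold change of -1.17 ± 0.12 from Day 60 (adjusted p = 9.93e-06) and -1.36 ± 0.11 from Day 30 (adjusted p = 2.21e-07). NRARP, a Notch-induced feedback inhibitor, was at 4.35, 4.07, 4.90 and 3.57 CPM on Day 30, at 4.44, 3.54 and 6.06 CPM on Day 60 and at 19.1, 10.5, 10.3 and 5.01 CPM on Day 113. It rose with a log2 fold change of 1.26 ± 0.34 from Day 60 (adjusted p = 0.0142) and 1.41 ± 0.31 from Day 30 (adjusted p = 0.00248), and Day 113 replicate 4 lay inside the Day 60 range. The rise from Day 60 did not pass without Day 60 replicate 1 (1.21, adjusted p = 0.0552) or replicate 2 (1.10, adjusted p = 0.0644). HES6, a HES family member known to oppose HES1, rose from 4.61 ± 1.44 CPM on Day 30 (SD, n = 4) to 11.4 ± 2.19 CPM on Day 113 (SD, n = 4), a log2 fold change of 1.31 ± 0.28 (adjusted p = 0.00175). HES4 was also higher on Day 113 than on Day 30, at 0.85 ± 0.18 (adjusted p = 0.00154), and HEY1 was lower, at -0.81 ± 0.24 (adjusted p = 0.0156). HEY1 no longer passed when the fit left out Day 30 replicate 2 (-0.72, adjusted p = 0.0529) or Day 113 replicate 3 (-0.70, adjusted p = 0.051).

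The HES2 and HES7 genes, both low, were lower on Day 113 than on Day 30. HES2 held 88, 135, 90 and 35 counts on Day 30, 0 counts in all 3 Day 60 wells, and 4, 3, 0 and 3 counts on Day 113. With the Day 60 wells set at a floor of 3 counts per library, the limit that a count of 0 allows for counting error only, HES2 was at least 27.2-fold lower on Day 60 than on Day 30 (adjusted p = 0.000377). On Day 113 its fitted log2 fold change from Day 30 was -5.08 ± 0.76 (adjusted p = 0.000169). Between Day 60 and Day 113 HES2 passed with an adjusted p of 0.0486 on counts of 0 to 4, and no fold is given. That call was lost under limma-voom (adjusted p = 0.474), with a minimum count of 50 (adjusted p = 0.0629) and with the replicate block (adjusted p = 0.0639). It was also lost without any of Day 60 replicates 1 to 3 or Day 113 replicates 1, 2 and 4 (adjusted p 0.0775 to 0.114). HES7, known from the segmentation clock, was at 2.30 to 3.54 CPM on Day 30, 2.91 to 5.71 CPM on Day 60 and 0.289 to 1.61 CPM on Day 113. It fell by 2.64 ± 0.49 on the log2 scale from Day 60 (adjusted p = 0.00113) and by 1.84 ± 0.46 from Day 30 (adjusted p = 0.00558). Without Day 113 replicate 2 these log2 fold changes were -3.32 and -2.51.

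Of the 3 other ligand genes, only DLK1, a non-canonical ligand that lacks the domain used to bind Notch receptors, passed in any comparison of days. It was at 76.5, 102, 91.9 and 23.9 CPM on Day 30, at 35.0, 37.3 and 25.8 CPM on Day 60 and at 77.4, 137, 131 and 72.9 CPM on Day 113. The Day 113 wells were all above the Day 60 wells, while Day 30 replicate 4 lay below all Day 60 wells. DLK1 rose by a log2 fold change of 1.68 ± 0.36 from Day 60 to Day 113 (adjusted p = 0.00366). From Day 30 to Day 60 it was -1.17 ± 0.36 (adjusted p = 0.0484). This call was lost without any of Day 30 replicates 1 to 3 or Day 60 replicates 1 to 3 (-0.95 to -1.28, adjusted p 0.0858 to 0.203). The DLK1 call was also lost by DESeq2 (adjusted p = 0.0782) and limma-voom (adjusted p = 0.138). The same held with RLE size factors (adjusted p = 0.0511), robust dispersions (adjusted p = 0.182) and a minimum count of 50 (adjusted p = 0.0531).

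In the nuclear complex, 1 of 5 genes passed against Day 113, RBPJ itself, which was lower on Day 113 than on Day 60 by a log2 fold change of -0.62 ± 0.12 (adjusted p = 0.0013) and than on Day 30 by -0.49 ± 0.11 (adjusted p = 0.00223). RBPJ was at 171 to 195 CPM on Day 30, 180.3 to 222 CPM on Day 60 and 108 to 147 CPM on Day 113, so its Day 113 wells lay below all earlier ones. Of the 8 receptor cleavage genes, 3 fell from Day 30 to Day 60, and 1 was higher and 3 lower on Day 113 than on Day 30. ADAM10, the protease that makes the ligand-dependent cut, had log2 fold changes of -0.49 ± 0.11 from Day 30 to Day 60 (adjusted p = 0.00865) and -0.69 ± 0.10 from Day 30 to Day 113 (adjusted p = 7.57e-05). APH1A, a gamma-secretase subunit, was higher on Day 113 than on Day 60 by 0.50 ± 0.12 (adjusted p = 0.00638).

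Of the 6 glycosylation and maturation genes, LFNG, a Fringe enzyme that adds sugars to the receptor and biases it towards Delta-like ligands, rose from 0.917 to 2.03 CPM on Day 30 to 2.89 to 5.74 CPM on Day 113. Its log2 fold change was 1.53 ± 0.43 (adjusted p = 0.0108). FURIN, which cuts the receptor precursor, was lower than on Day 30 by -0.74 ± 0.13 on Day 60 (adjusted p = 0.00149) and by -0.60 ± 0.12 on Day 113 (adjusted p = 0.00083). Among 4 ligand ubiquitination genes, MIB1, which drives ligand endocytosis, was lower on Day 113 than on Day 30 at -0.47 ± 0.13 (adjusted p = 0.00813), and the others did not pass. Among 7 turnover and inhibition genes, FBXW7, the ubiquitin ligase subunit that marks the Notch intracellular domain for destruction, rose. It was at 25.4, 23.1, 29.3 and 32.6 CPM on Day 30, at 38.2, 46.9 and 55.0 CPM on Day 60 and at 52.0, 56.6, 66.9 and 68.3 CPM on Day 113. Its log2 fold change was 0.76 ± 0.15 from Day 30 to Day 60 (adjusted p = 0.00369) and 1.14 ± 0.14 from Day 30 to Day 113 (adjusted p = 1.31e-05). DTX4, a Deltex ubiquitin ligase, was lower on Day 113 than on Day 30 at -1.12 ± 0.38 (adjusted p = 0.0308). That call was lost without Day 30 replicate 2 or 3 or Day 113 replicate 1 or 2 (-0.83 to -1.08, adjusted p 0.0528 to 0.121), with robust dispersions (adjusted p = 0.0551) and in a fit of the 2 days alone (adjusted p = 0.0548).

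**Figure D5:**
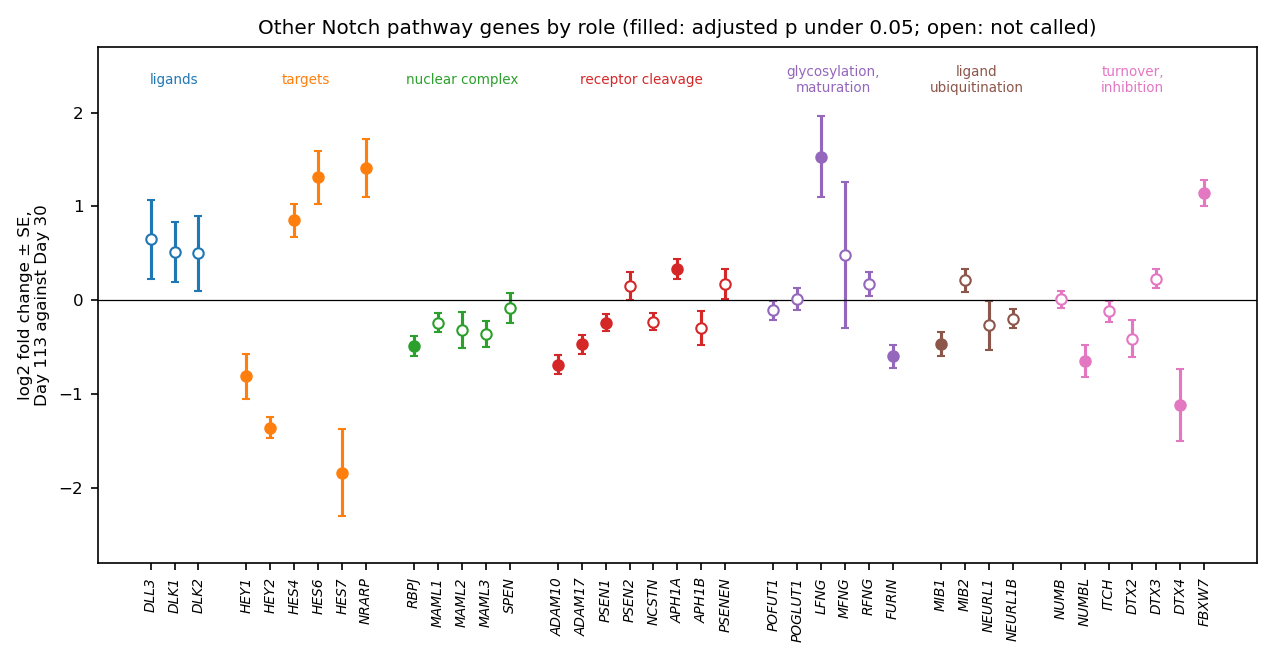
Fitted log2 fold change from Day 30 to Day 113, with its SE as bars, of the other Notch pathway genes measured, grouped and coloured by role, with HES2 left out because its counts on Day 113 were 0 to 4. Filled points had an adjusted p under 0.05. Filled points lie on both sides of 0 in the target group, from HES7 at -1.84 to NRARP at 1.41, and RBPJ and ADAM10 lie below 0.

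For each of the 8 genes, the genes with the most similar course were taken as those with the smallest root-mean-square difference in centred log2 CPM over the 11 libraries, among 11946 genes with a mean of at least 5 CPM. DLL4 was nearest to ADGRL4 (0.42), FLT4 (0.44) and ACVRL1 (0.46), all 3 known from endothelium. NOTCH1 was close to DOCK6 (0.17) and ANGPTL2 (0.22), and HES1 was nearest to EHD2 (0.16), IDH1 (0.20) and F2R (0.21). HEYL was nearest to DDR2 (0.29), COL14A1 (0.30) and PIEZO2 (0.32), and NOTCH3 to FRMD6 (0.26), GDF6 (0.29) and SULT1C4 (0.29). The nearest to NOTCH2 were TASOR2 (0.09), TRIO (0.10) and HECTD4 (0.10), to JAG1 WWC3 (0.11), CHAMP1 (0.12) and ZFP64 (0.13), and to JAG2 CDH2 (0.10), SAP130 (0.11) and ASXL1 (0.12). Between members, NOTCH1 and HES1 differed by 0.22, and DLL4 and HEYL by 0.99. The second distance rested on Day 60 replicate 1, where DLL4 was at 1.37 CPM and HEYL at 3.54 CPM, and it was 0.44 without that library, an alternative chosen after the values were seen. These distances share the libraries and days and are a description with no test.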

How the data were processed

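Poly(A) RNA of 11 wells was sequenced as paired-end 150-base reads, per the labels' protocols. The authors deposited raw read counts for 19990 gene symbols, made with STAR 2.5.3a and featureCounts 2.0.3 on hg38, per the submitters' processing notes. The annotation and the strand setting are not given in the sources used here. TPM values that the authors deposited for the same genes were not used: the gene length implied by count and TPM did not repeat between libraries (median Spearman rho -0.001 over 55 pairs).

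Genes were tested with edgeR 4.0.16 (glmQLFit, glmQLFTest) in R 4.3.3 on the counts, with TMM scaling (factors 0.966 to 1.04), day as the only factor and all 11 libraries in one fit. The filterByExpr step (minimum count 10) removed 0 genes. P-values were adjusted by Benjamini-Hochberg over 19990 genes in each comparison, with a threshold of 0.05. The biological coefficient of variation was 0.282. Standard errors were derived from the F statistic of each gene. Libraries carried no molecular identifiers. Wells of a day differed by more than sampling noise (chi-square per degree of freedom 11.1 to 80.8 over 15 pairs) and were counted separately.

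The members and lists were chosen with earlier results of these data known. Pathway genes were named where they passed and changed by 1 or more on the log2 scale, besides the highest and lowest called gene of a list, and HES4, HEY1 and APH1A were named after their values were seen. Alternatives were RLE size factors, DESeq2 1.42.0, limma-voom (limma 3.58.1), robust dispersions, no filter, a minimum count of 50, only the 2 days compared, a threshold of 0.01, the replicate number as a block, and leaving out each well. A gene selected by the similarity rule is not reported here. The edgeR test was tested on simulated data. Promoter sequences are from RefSeq (GRCh38.p14).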

Additional observations from a re-analysis of the deposited data

Results flagged for a closer look

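A single well stood apart from the other 3 of its day in 4 of the 34 groups of 4 wells examined over 17 genes, and chance gives about 1 in 20 groups. JAG1 was at 95.5 CPM in Day 113 replicate 1, with the other Day 113 wells at 54.0 to 58.6 CPM. JAG2 was at 33.8 CPM in the same well, with the others at 23.1 to 24.6 CPM. HES7 was at 3.54 CPM in Day 30 replicate 2, with the other Day 30 wells at 2.30 to 2.47 CPM. HES2 was at 0 CPM in Day 113 replicate 3, with the others at 0.112 to 0.120 CPM, which were 3 to 4 counts each.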

How the results depend on the processing

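DLL4 and HEYL were called higher on Day 113, against both other days, under every alternative run, with log2 fold changes for DLL4 of 2.68 to 3.47 from Day 60 and 1.93 to 2.57 from Day 30, and for HEYL of 1.77 to 2.30 and 2.16 to 2.79. The number of Notch genes called from Day 30 to Day 60 was 1, with 0 under robust dispersions (1 at an unadjusted p under 0.05), 2 with only the 2 days compared, and 0 to 1 when single wells were left out. The lowest of these, without Day 60 replicate 3, had 2 at an unadjusted p under 0.05. From Day 60 to Day 113 it was 5, with 3 at an adjusted p under 0.01 and 2 to 5 without single wells. From Day 30 to Day 113 it was 4, with 2 at 0.01 and 3 to 6 without single wells. For the difference between the intervals it was 3, with 0 under robust dispersions and 0 at 0.01 (5 at an unadjusted p under 0.05 in both), 5 with the replicate block and 1 to 4 without single wells. The causes were not tested. The difference between the intervals for JAG2, 0.02, changed sign to -0.01 with RLE size factors and with DESeq2, to -0.03 with a minimum count of 50, and without single wells ran from -0.24 to 0.32 (negative values -0.07, -0.01, -0.24, -0.05 and -0.13). JAG1 from Day 60 to Day 113 ran from -0.06 (without Day 113 replicate 1) to 0.25 without single wells. Same-numbered wells of different days had correlations of 0.01 to 0.29 in their deviations from the day means over 11946 genes, with 8 of the 10 pairs over 0.1, while 3 of the 30 pairs of unlike number were over it (-0.20 to 0.22), and 8 of the 11 wells correlated best with a well of their own number. No label ties the numbers to a shared source, so the fit without the block was kept. The 2 same-numbered pairs not over 0.1 do not exclude pairing, which remains possible. With the replicate block, 6 Notch genes were called from Day 60 to Day 113, 6 from Day 30 to Day 113 and 1 from Day 30 to Day 60. The members that gained a call under it were NOTCH3 from Day 60 (0.92, adjusted p = 0.0363) and from Day 30 (-0.82, adjusted p = 0.0262) to Day 113, HES1 from Day 30 to Day 113 (0.52, adjusted p = 0.0309), and, for the difference between the intervals, HES1 (1.55, adjusted p = 0.0126) and HEYL (2.00, adjusted p = 0.0352). Depth limits HES2, NOTCH4_2 and NOTCH4_3, whose counts reached 0 to 5 in some wells.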
